A study of Mus musculus with 8 samples.

Results

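The 9 genes of lactate and glucose handling described here were chosen by name from the 32285 genes counted in single nuclei of the mouse brain: the monocarboxylate transporter genes Slc16a1, Slc16a3 and Slc16a7, the glucose transporter genes Slc2a1 and Slc2a3, the lactate dehydrogenase genes Ldha and Ldhb, the hexokinase gene Hk1 and the pyruvate dehydrogenase kinase gene Pdk4. All 9 were found in the count table. Frozen hemispheres of 6-month-old C57BL6/J mice, from which cerebellum and olfactory bulb had been removed, gave 8 libraries, 2 for each of WT, Cnp-/-, 5xFAD and Cnp-/- 5xFAD, and each library pooled the tissue of 2 animals. Cnp-/- mice lack CNP, a protein of the myelin sheath, from birth and in every cell, so effects of its loss in a non-myelinating cell cannot be told apart from effects of altered myelin. 5xFAD mice carry human transgenes with familial Alzheimer mutations, driven by neuronal Thy1 regulatory sequence, and form amyloid plaques. The comparisons ask whether the genes through which glial and vascular cells are thought to feed axons differ with defective myelin, with amyloid, or with both. Values are counts of unique molecular identifiers (UMIs, 1 per captured RNA molecule), summed over the nuclei of a class in a library and scaled to 1000000 UMIs of that class (CPM), and the library is the replicate.

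Glucose enters the brain through GLUT1 (Slc2a1) of the endothelium and reaches neurons mainly through GLUT3 (Slc2a3). Hexokinase 1 traps it as glucose 6-phosphate, and lactate dehydrogenase, built from subunits A (Ldha) and B (Ldhb), interconverts pyruvate and lactate. Lactate crosses membranes with a proton through MCT1 (Slc16a1), MCT2 (Slc16a7, of high affinity) and MCT4 (Slc16a3, of low affinity), and PDK4 restrains the entry of pyruvate into mitochondria by phosphorylating pyruvate dehydrogenase. Oligodendrocytes are held to pass lactate to the axons they ensheathe, with MCT1 as one of the exits.

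The 61949 nuclei carried the authors' cell classes: 5612 mature and 465 newly formed oligodendrocytes, 1522 oligodendrocyte precursor cells, 4810 astrocytes, 1667 endothelial cells, 260 pericytes, 45141 neurons and 2472 microglia. Depth differed by class: the libraries held 64172772 to 77113463 UMIs of neurons but 819922 to 1801866 of mature oligodendrocytes and 23002 to 103832 of pericytes, where 1 UMI was worth 9.63 to 43.5 CPM, so pericytes were described and not tested. Cnp in mature oligodendrocytes stood at 283 and 321 CPM in WT and 219 and 265 in 5xFAD, against 23.1 and 23.2 in Cnp-/- and 24 and 32.8 in Cnp-/- 5xFAD libraries, as labelled. The marker list of each class was higher in all libraries of that class than in any other class, except that pericyte markers reached 6002 CPM in endothelial cells against 4778 to 8904 in pericytes. The makeup of the neurons varied at both ends: 35.4% of them lay in clusters with the vesicular glutamate transporter Slc17a7 in WT replicate 1 and 73.4% in Cnp-/- 5xFAD replicate 2, against 46.1 to 62.0% in the other 6 libraries. Barcodes found in more than 1 library numbered 454, on 909 nuclei. All values are of nuclear RNA captured at 3′ ends, and levels of different genes are not compared with each other.

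Because Slc2a1 and Slc16a1 were both at their highest in the endothelium, the 200 bases that end 50 bases before the RefSeq start of each gene, which is not the GENCODE start given further on, are shown (RefSeq, GRCm38.p6, plus strand, 5′ to 3′). Capitals mark the letters ACGTG or GCGTG, the core bound by hypoxia-inducible factors, on either strand; in Slc16a1 a pair of matches on opposite strands overlaps.
Slc2a1, chr4:119108495-119108694: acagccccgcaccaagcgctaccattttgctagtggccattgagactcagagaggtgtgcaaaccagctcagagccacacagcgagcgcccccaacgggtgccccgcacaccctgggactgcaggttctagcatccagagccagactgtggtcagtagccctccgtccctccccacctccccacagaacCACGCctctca
Slc16a1, chr3:104638414-104638613: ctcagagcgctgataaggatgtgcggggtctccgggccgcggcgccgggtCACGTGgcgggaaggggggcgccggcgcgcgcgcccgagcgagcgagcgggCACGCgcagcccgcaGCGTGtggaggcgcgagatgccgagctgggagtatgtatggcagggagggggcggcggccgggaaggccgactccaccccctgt
Promoter entries were found for 7 of the 9 members (not for Slc16a7 and Slc2a3), 9 entries in all, and 7 of these 9 windows held the letters on either strand, as did 31.6% of the 32851 windows in the table. Slc16a1 held 2 matches of ACGTG and 2 of GCGTG, and Slc2a1 held 1 of GCGTG. A match of letters says nothing about binding in these cells.

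MCT1 transcripts had their highest level in the endothelium. Slc16a1 (chromosome 3, 104638668 to 104658462, GRCm38) averaged 227 ± 33 CPM in endothelial cells (SD, n = 8 libraries; lowest 174, median 228, highest 274), which was 15.0 times the next class, mature oligodendrocytes, with 15.2 ± 12.3 CPM. Every endothelial library exceeded every oligodendrocyte library. Endothelial cells were 1667 of 61949 nuclei but gave 42.4% of the 4544 Slc16a1 UMIs, while the 45141 neurons, at 4.06 ± 2.05 CPM, gave 50.3%. Below the endothelium, mature oligodendrocytes, astrocytes (10.8 ± 10.4 CPM) and pericytes (8.76 ± 12.5) did not differ by more than the spread between libraries.

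MCT2 transcripts had their highest levels outside the endothelium. Slc16a7 (chromosome 10, 125219270 to 125389465) was highest in microglia (245 ± 29.2 CPM) and mature oligodendrocytes (243 ± 46.9 CPM), whose means differed by less than their spread, with microglia the higher in 5 of 8 libraries. Neurons followed with 140 ± 10.0 CPM, below mature oligodendrocytes in all 8 libraries. Newly formed oligodendrocytes (107 ± 38.4) and precursors (93.7 ± 21.8) did not differ beyond their spread. Endothelial cells held 17.8 ± 7.10 CPM, and astrocytes had 13 Slc16a7 UMIs in 4810 nuclei (0.872 ± 0.645 CPM). Of the UMIs of Slc16a1 and Slc16a7 together, Slc16a1 made up 92.5 ± 3.24% in endothelial cells, 5.74 ± 4.44% in mature oligodendrocytes and 2.83 ± 1.44% in neurons (n = 8 each). These shares compare classes and do not rank the genes, whose transcripts differ in length and capture.

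MCT4 transcripts were scarce everywhere. Slc16a3 (chromosome 11, 120948480 to 120960868) was highest in microglia, at 12.8 ± 6.08 CPM from 68 UMIs, and was above pericytes, the next class, in 6 of 8 libraries. Mature oligodendrocytes held 2.90 ± 3.22 CPM (25 UMIs), neurons 1.32 ± 0.191 and astrocytes 0.388 ± 0.861 CPM from 5 UMIs.

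**Figure D1:**
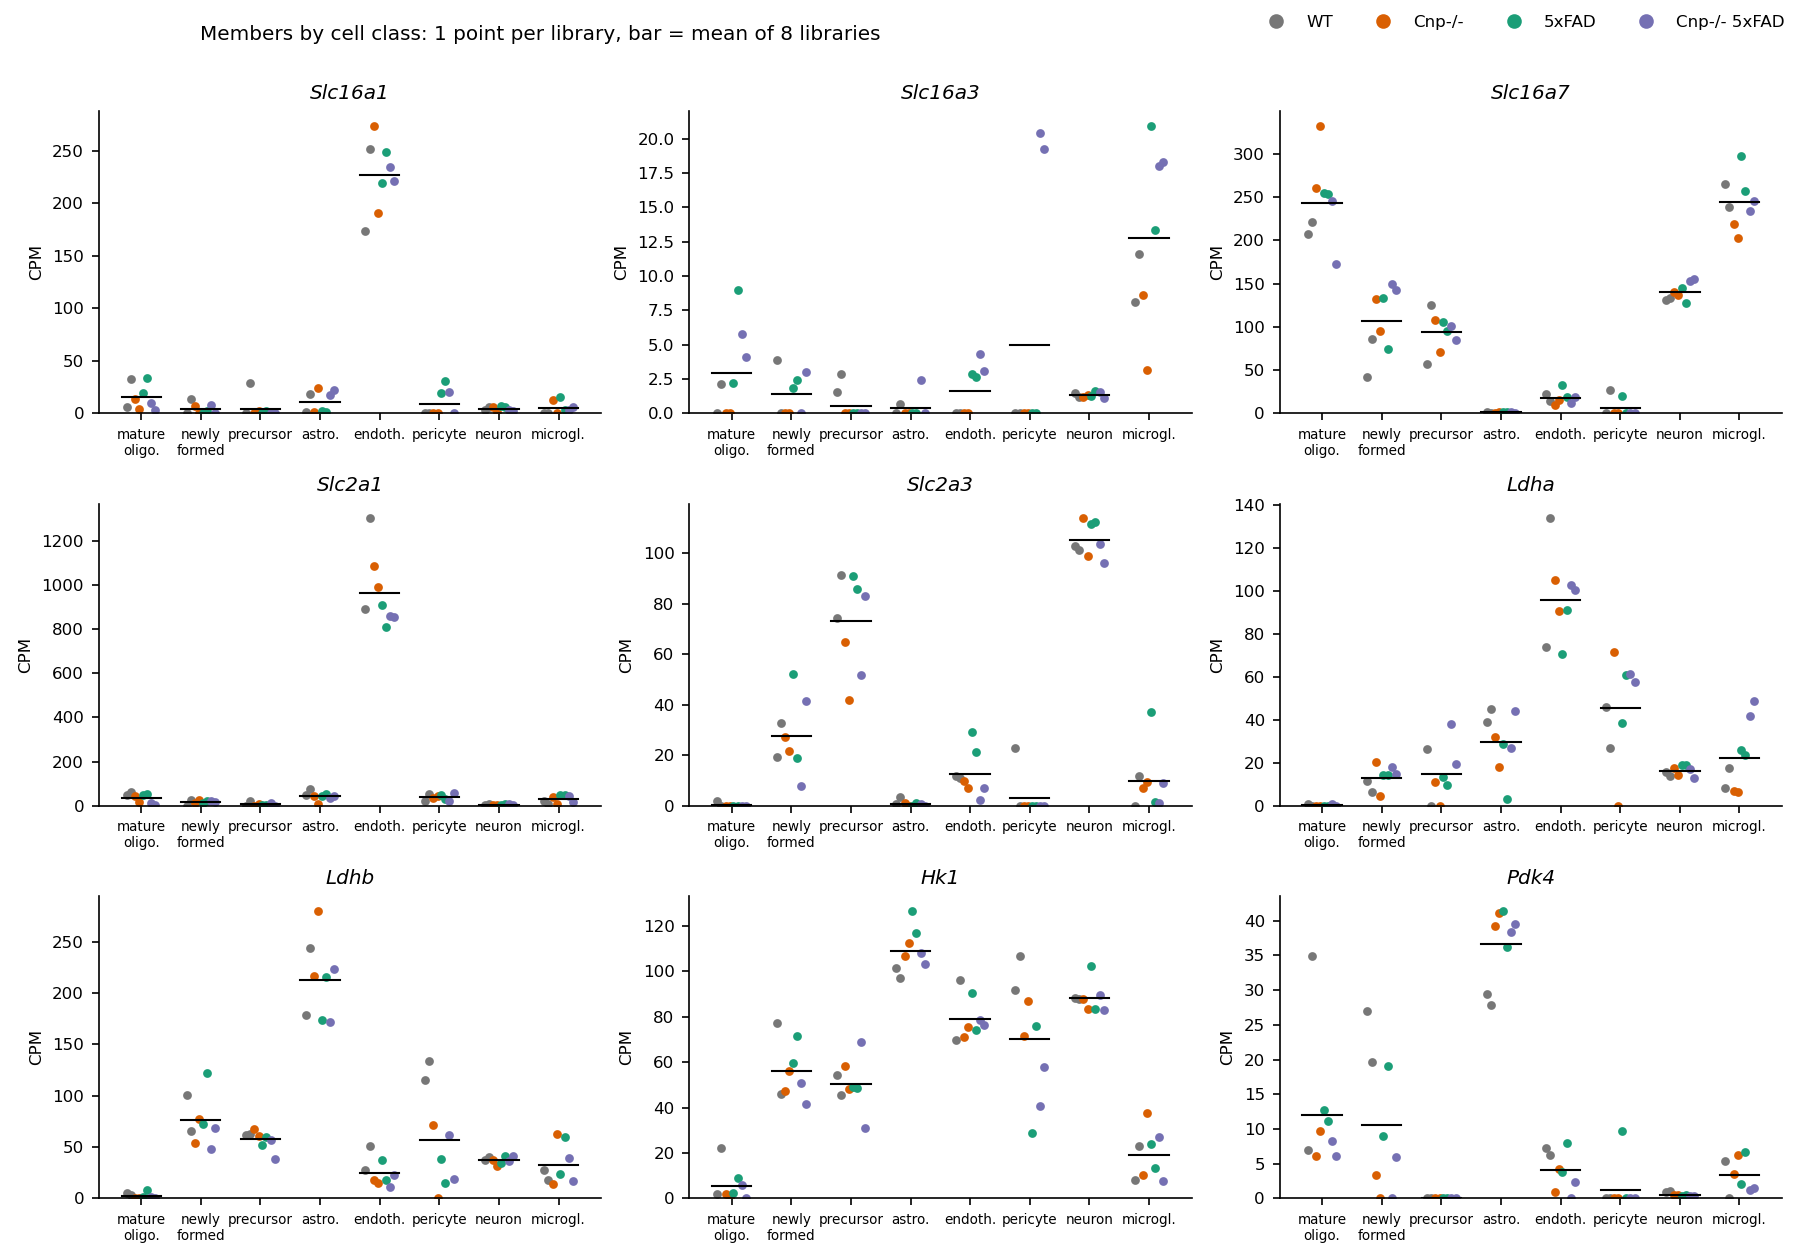
Level of each of the 9 members (CPM, linear axis from 0, own scale per panel) in 8 cell classes; each point is 1 library coloured by genotype and each bar is the mean of 8 libraries. Slc2a1 and Slc16a1 peak in endothelial cells (means of 962 and 227 CPM), Ldhb, Hk1 and Pdk4 in astrocytes, Slc2a3 in neurons, and Slc16a7 is high in microglia and mature oligodendrocytes.

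GLUT1 transcripts marked the endothelium even more strongly. Slc2a1 (chromosome 4, 119108711 to 119137983) averaged 962 ± 162 CPM there (lowest 807, median 900.2, highest 1301), 22.0 times the astrocyte mean of 43.8 ± 19.3 CPM. Astrocytes, pericytes (39.0 ± 13.9), mature oligodendrocytes (36.2 ± 22.4) and microglia (29.7 ± 17.9) formed a middle group whose neighbours did not differ beyond their spread. Neurons (4.67 ± 2.42 CPM) and oligodendrocyte precursor cells (6.17 ± 8.03) had the lowest means, which did not differ beyond their spread.

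GLUT3 had the reverse pattern. Slc2a3 (chromosome 6, 122727809 to 122801640) was highest in neurons, at 105 ± 6.70 CPM (lowest 96.2, median 103, highest 114), followed by oligodendrocyte precursor cells with 72.9 ± 18.6 CPM, lower in all 8 libraries. Newly formed oligodendrocytes held 27.6 ± 14.2 and endothelial cells 12.4 ± 8.73 CPM. Mature oligodendrocytes had 2 UMIs, both from 1 nucleus. Slc2a1 made up 98.7 ± 0.998% of the UMIs of both GLUT genes in endothelial cells and 4.17 ± 1.97% in neurons (n = 8 each).

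The lactate dehydrogenase subunits separated astrocytes from endothelium. Ldhb (chromosome 6, 142490249 to 142507957), the subunit that favours oxidation of lactate to pyruvate, averaged 213 ± 37.8 CPM in astrocytes, 2.80 times the 76.0 ± 24.2 CPM of newly formed oligodendrocytes and above them in all 8 libraries. Ldha (chromosome 7, 46841475 to 46855627), the subunit that favours lactate formation, averaged 95.9 ± 19.8 CPM in endothelial cells, above pericytes (45.3 ± 23.3 CPM) and astrocytes (29.5 ± 14.0 CPM). Of their summed UMIs, Ldhb made up 87.8 ± 5.61% in astrocytes, 69.8 ± 3.70% in neurons and 20.3 ± 8.57% in endothelial cells (n = 8 each). The share in every endothelial library, at most 34.8%, lay below that in every astrocyte library, at least 82.1%.

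Hk1 (chromosome 10, 62268855 to 62379908) was well represented in astrocytes, neurons and endothelium: astrocytes held 109 ± 9.50 CPM, neurons 88.2 ± 6.27 and endothelial cells 79.1 ± 9.41, and the last of these did not differ from neurons beyond the spread. Microglia, at 18.9 ± 10.7 CPM, and mature oligodendrocytes, at 5.34 ± 7.46 CPM, were lower than precursors in all 8 libraries. Pdk4 (chromosome 6, 5483351 to 5496309) was highest in astrocytes, at 36.7 ± 5.22 CPM, 3.06 times the mean of mature oligodendrocytes (12 ± 9.55 CPM) and above them in 7 of 8 libraries. Precursors had no Pdk4 UMI among 4880683, which allows up to 0.615 CPM (3 counts over the class).

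Along the oligodendrocyte lineage the members changed places. From precursors through newly formed to mature cells, the mean level of Slc2a3 was 72.9, 27.6 and 0.216 CPM, in that order in all 8 libraries. Ldhb was 57.6, 76.0 and 2.45 CPM, Hk1 50.5, 56.2 and 5.34 CPM, and Ldha 14.7, 13.0 and 0.211 CPM (2 UMIs in 5612 mature nuclei). For these 3 genes the newly formed cells lay above the mature ones in all 8 libraries. The transporters Slc16a7 (93.7, 107 and 243 CPM), Slc16a1 (4.03, 3.74 and 15.2 CPM) and Slc2a1 (6.17, 17.3 and 36.2 CPM) were instead higher in mature cells than in precursors in all 8 libraries. The same held for an enzyme gene, Pdk4 (0, 10.5 and 12 CPM). The transporter Slc16a3 was sparse throughout (0.551, 1.38 and 2.90 CPM) and was higher in mature cells than in precursors in 4 of 8 libraries. In all, mature oligodendrocyte nuclei had 23 UMIs of both dehydrogenase genes together, 25 of Slc16a3, 45 of Hk1 and 108 of Pdk4. The median nucleus of this class had 1515 UMIs, against 3036 for precursors and 4852 for newly formed cells. The part of ambient RNA removal and of this depth in the low counts was not tested. Astrocyte markers summed to 1490 to 3884 CPM in newly formed cells, 602 to 779 in precursors and 206 to 345 in mature cells. In astrocytes they summed to 9686 to 13247 CPM. The part of astrocyte RNA in the Ldhb and Hk1 levels of newly formed cells was not tested.

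Within neurons, the dehydrogenase genes differed between clusters. In the 7 clusters with the GABA synthesis genes Gad1 and Gad2 (11268 nuclei), Ldhb averaged 62.2 ± 7.72 CPM and Ldha 6.73 ± 4.41 (n = 8 libraries). In the 14 clusters with Slc17a7 (24122 nuclei), Ldhb averaged 24.7 ± 8.91 and Ldha 19.6 ± 2.72 CPM. Ldhb did not overlap between the cluster sets, with 38.1 to 139 CPM in single Gad clusters and 12 to 37.1 in single Slc17a7 clusters. The Ldhb share of both subunits was 90.4 ± 5.78% in Gad clusters and 54.1 ± 11.4% in Slc17a7 clusters.

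**Figure D2:**
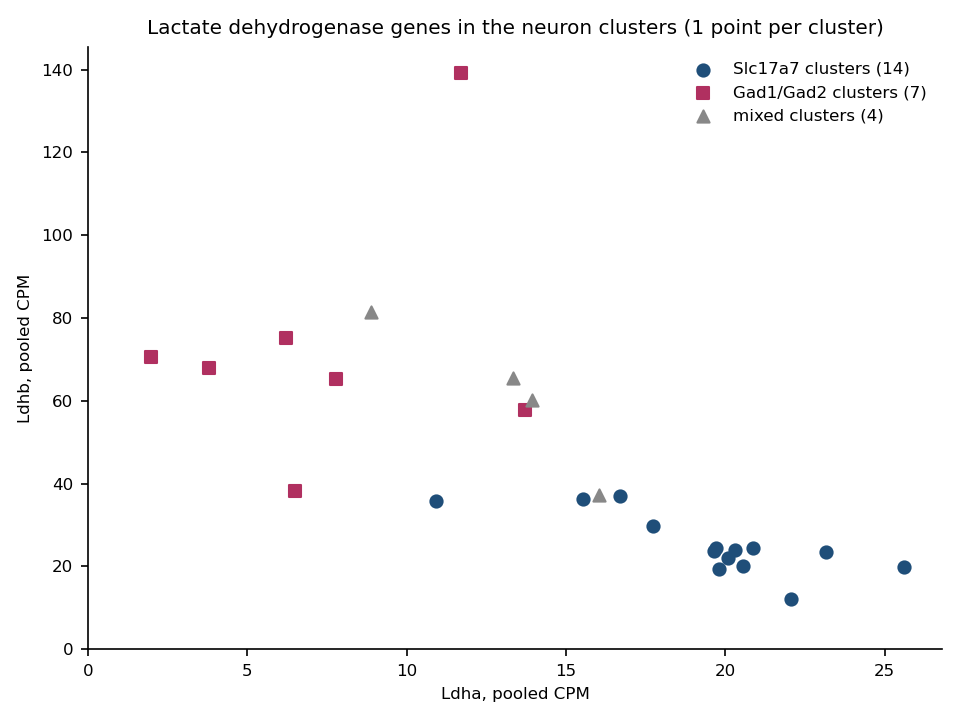
Ldha (x axis) and Ldhb (y axis), both in CPM pooled over the 8 libraries, in the 25 neuron clusters: circles have Slc17a7 over 100 CPM with Gad1 and Gad2 under 50, squares the reverse, triangles neither. The 7 Gad clusters lie at 38.1 CPM of Ldhb or more, and the 14 Slc17a7 clusters at 37.1 or less.

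Slc16a7 went the other way, with 168 ± 8.41 CPM in Slc17a7 clusters and 83.7 ± 6.12 in Gad clusters, as did Hk1 with 97.1 ± 6.41 and 73.5 ± 8.36 CPM. Slc2a3 differed by less than the spread, at 109 ± 5.47 and 105 ± 13.9 CPM. Of the 309 neuronal Pdk4 UMIs, 282 came from the 4 clusters of neither set, 8 from Slc17a7 and 19 from Gad clusters. These are descriptions, since the clusters were made from the same counts. Slc17a7 clusters held between 35.4 and 73.4% of a library's neurons, so the neuronal levels of genes that differ between the sets also move with this makeup.

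The endothelial class held 3 clusters. The largest 2, of 854 and 743 nuclei, had 1145 and 895 CPM of Slc2a1 and 284 and 208 CPM of Slc16a1, pooled over libraries. Pericyte markers summed to 2118 CPM in the first and 4946 in the second. The smallest, of 70 nuclei and led by Mecom, Gm5127 and Vwf, had 277 CPM of Slc2a1, 50.3 of Slc16a1 and 84.9 of Ldhb. No library gave it 20 nuclei, so no error is given.

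For the genotype comparisons, the effect of Cnp loss is the mean of Cnp-/- and Cnp-/- 5xFAD minus that of WT and 5xFAD on the log2 scale, and the 5xFAD effect the mean of 5xFAD and Cnp-/- 5xFAD minus that of WT and Cnp-/-, with 4 libraries on each side. The interaction asks whether the effect of Cnp loss differs with and without 5xFAD. edgeR's quasi-likelihood test was fitted over all genes in 6 classes, and 37 of 54 pairs of member and class passed its filter on low counts. None of the 111 member tests had an adjusted p under 0.05 by edgeR, whereas 0.0847% of all 218379 tests did. DESeq2 called 1 of the 91 to which it gave an adjusted p, Slc2a1 in mature oligodendrocytes with Cnp loss, a comparison in which it called 6.02% of genes. Unadjusted, 10 member tests were under 0.05 (9.01%, against 6.82% of all tests). What follows gives these values without a claim of change, and the plot of fitted differences shows their intervals.

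**Figure D3:**
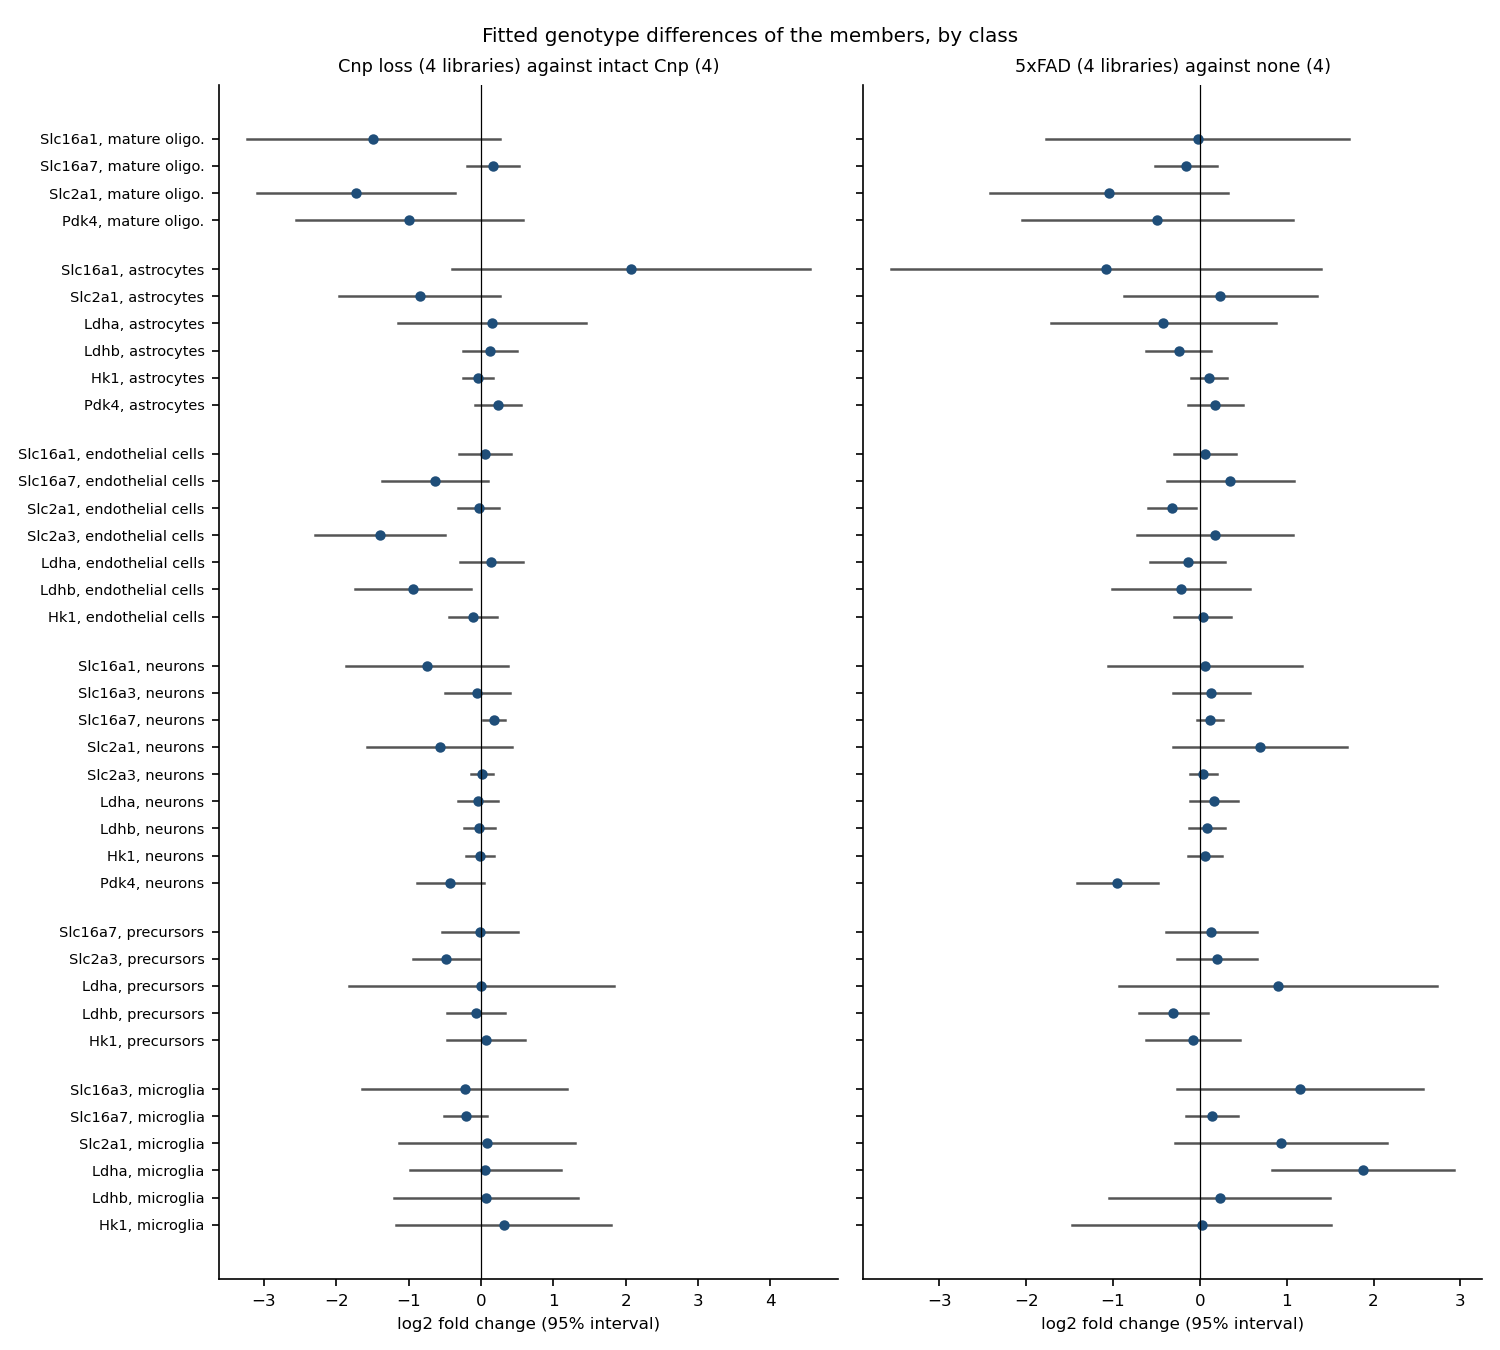
Fitted log2 fold change (point) with its 95% interval (line) for each member in each class where it was tested, for Cnp loss (left) and 5xFAD (right), 4 libraries against 4. Intervals are narrow for abundant pairs, such as Slc2a1 in endothelial cells with Cnp loss at -0.03, and wide for sparse ones, such as Slc16a1 in astrocytes at 2.07; no member passed the adjusted threshold.

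In mature oligodendrocytes, the cells whose myelin lacks CNP, Slc2a1 had its lowest values without Cnp. The level was 49.2 and 61.3 CPM in WT, 50.5 and 53.7 in 5xFAD, 43.9 and 15.9 in Cnp-/-, and 14.1 and 1.03 in Cnp-/- 5xFAD libraries. All 4 libraries without Cnp lay below all 4 with it, as for 5.94% of the genes tested in this class. The log2 fold change was -1.73 (SE 0.588, fold 0.302, 95% interval 0.117 to 0.779), with an edgeR adjusted p of 0.281, in a comparison that called 0.765% of genes. DESeq2, which called 6.02% of genes, gave an adjusted p of 0.0308. Without the filter on low counts edgeR gave 0.00819, in a fit that called many more genes in this class than the main fit. The call thus depends on the method, while the log2 fold change lay between -3.12 and -1.30 in all 13 alternatives. Endothelial markers summed to 0 to 10.1 CPM in these nuclei, and Cldn5 and Ly6c1 were at 0. At the endothelial ratio of Slc2a1 to those markers this corresponds to at most 0.957 CPM of Slc2a1, a figure that takes the ratio to be the same in both classes, and the part of endothelial RNA was not tested.

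Slc16a1 was also lower on average in mature oligodendrocytes without Cnp, but its groups overlapped. It stood at 6.04 and 32.8 CPM in WT, 18.9 and 33.6 in 5xFAD, 13.4 and 3.66 in Cnp-/-, and 9.92 and 3.08 in Cnp-/- 5xFAD libraries. WT replicate 1 lay among the libraries without Cnp. With Cnp loss it differed by a log2 fold change of -1.48 (SE 0.749, edgeR adjusted p = 0.508), and its interval runs from a fold of 0.107 to 1.2. The value ran from -2.07 without Cnp-/- replicate 1 to -0.65 without WT replicate 2. Neurons, where both genes were sparse, also had negative log2 fold changes with Cnp loss. These were -0.57 for Slc2a1 (SE 0.427, edgeR adjusted p = 0.787) and -0.74 for Slc16a1 (SE 0.476, edgeR adjusted p = 0.746). For both genes Cnp-/- replicate 2 and Cnp-/- 5xFAD replicate 2 were the lowest neuronal libraries, as for Slc16a1 in mature oligodendrocytes. Astrocyte and endothelial values are given below.

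Slc16a7, by far the better counted of the MCT genes there, stood at 207 and 221 CPM in WT, 255 and 254 in 5xFAD, 260 and 333 in Cnp-/-, and 246 and 172 in Cnp-/- 5xFAD libraries. Cnp loss gave a log2 fold change of 0.17 (SE 0.155). The interaction was -0.76 (SE 0.310, unadjusted p = 0.0414, edgeR adjusted p = 1.00), with Cnp-/- above WT and Cnp-/- 5xFAD below 5xFAD. Pdk4 had a log2 fold change of -0.99 with Cnp loss (unadjusted p = 0.181 by edgeR), and WT replicate 2, at 34.9 CPM, exceeded the other 7 libraries, which held 6.09 to 12.8. Without that library the value was -0.19.

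**Figure D4:**
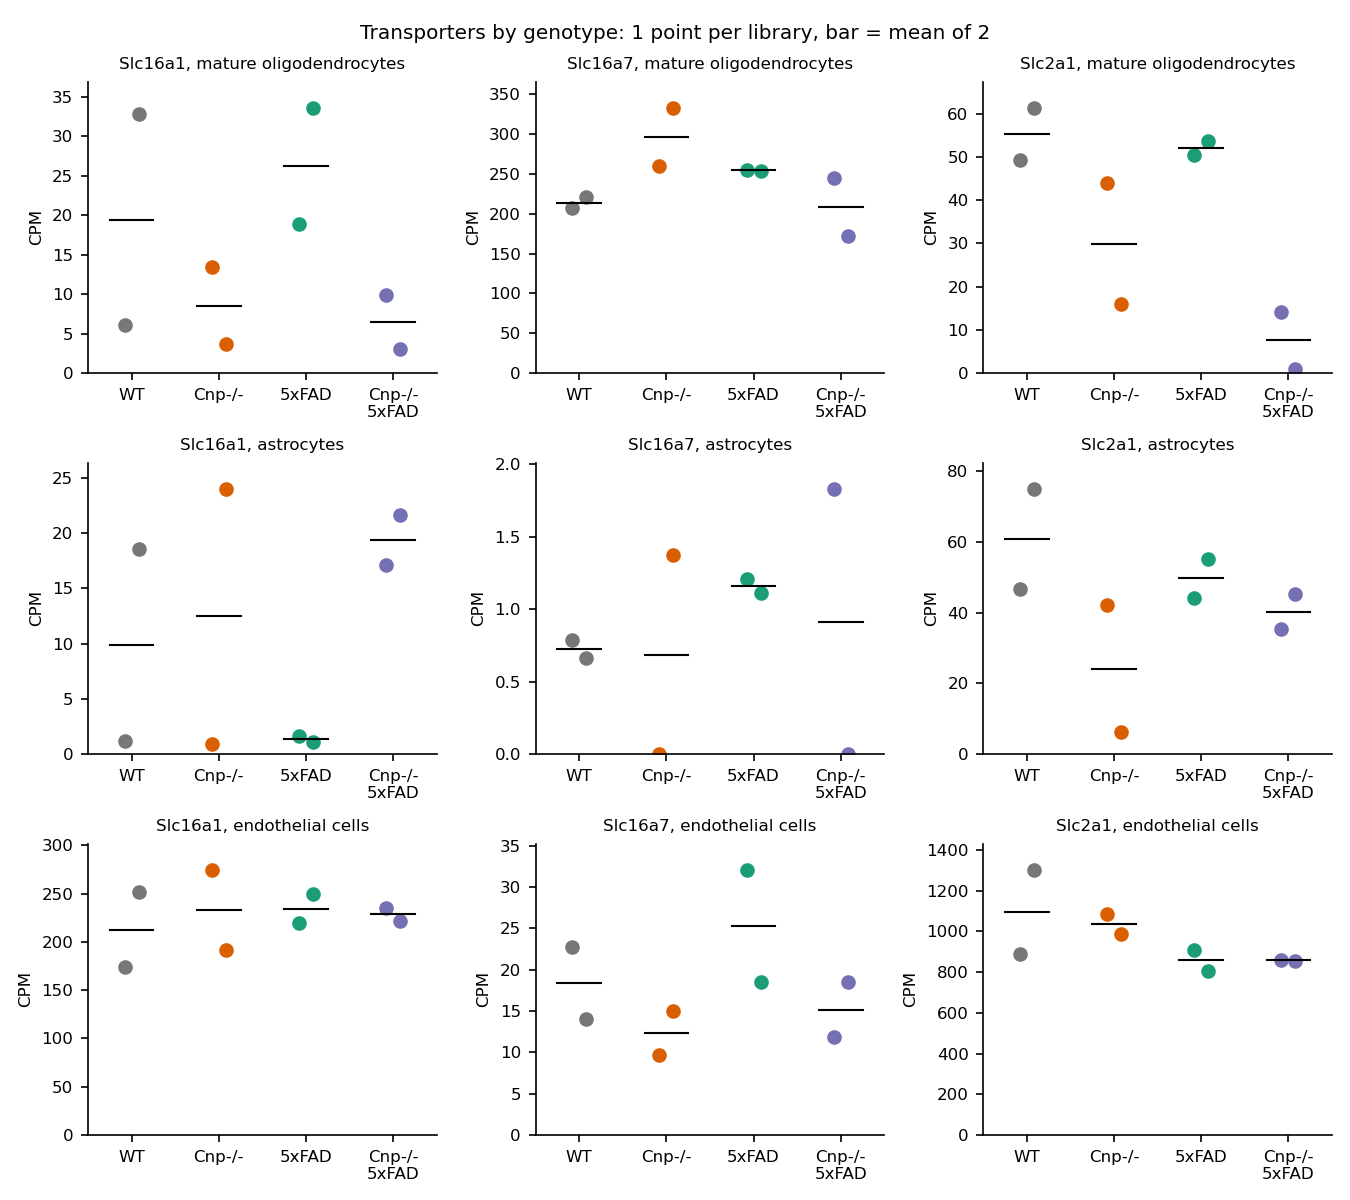
Slc16a1, Slc16a7 and Slc2a1 (columns, CPM, linear axes from 0) in mature oligodendrocytes, astrocytes and endothelial cells (rows) by genotype; each point is a library and each bar the mean of 2. In mature oligodendrocytes the 4 libraries without Cnp hold at most 43.9 CPM of Slc2a1 and the other 4 at least 49.2, while in astrocytes Slc16a1 splits the libraries across genotypes.

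In astrocytes, Slc16a1 fell into separate levels that did not follow genotype. It was 1.18 and 18.6 CPM in WT, 0.935 and 24 in Cnp-/-, 1.61 and 1.12 in 5xFAD, and 17.1 and 21.7 in Cnp-/- 5xFAD libraries. The log2 fold change with Cnp loss was 2.07 (SE 1.05, edgeR adjusted p = 0.983), against an edgeR adjusted p of 0.00843 without the filter. The unfiltered fit called many more genes in this class than the main fit. The log2 fold change ran from 0.24 without Cnp-/- replicate 2 to 3.55 without WT replicate 2. Markers of mature oligodendrocytes in the same astrocyte nuclei summed to 118 to 255 CPM in the 4 libraries with the higher Slc16a1 and 60.8 to 78.6 CPM in the other 4. Mature oligodendrocytes themselves held 3.08 to 33.6 CPM of Slc16a1 and 12861 to 16579 CPM of these markers. The part of such RNA in the astrocyte Slc16a1 level was not tested.

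Astrocyte Slc2a1 was 46.7 and 75.0 CPM in WT, 44.3 and 55.2 in 5xFAD, 42.1 and 6.17 in Cnp-/-, and 35.4 and 45.3 in Cnp-/- 5xFAD libraries. Its log2 fold change with Cnp loss was -0.84 (SE 0.471, edgeR adjusted p = 0.983). The edgeR adjusted p was 0.0102 in the unfiltered fit, which called many more genes here than the main fit. Cnp-/- replicate 2 was the low library, and the log2 fold change was -0.41 without it and -1.80 without Cnp-/- replicate 1, the ends of the range over the alternatives. Endothelial markers summed to 451 to 592 CPM in astrocytes, of which 406 to 567 were Slco1c1, a thyroid hormone and organic anion transporter that astrocytes also express, and 20.0 to 65.1 the other 5. At the endothelial ratio of Slc2a1 to the markers, the other 5 correspond to 2.12 to 9.52 CPM of Slc2a1 in astrocytes, and all 6, Slco1c1 included, to 41.2 to 62.1 CPM. Both take the ratio to be the same in both classes, and the part of endothelial RNA in the astrocyte level was not tested. Ldhb, Hk1 and Pdk4, which had their highest class here, had log2 fold changes with Cnp loss of 0.13, -0.04 and 0.24. No gene passed the adjusted threshold of edgeR in this class for either effect (0% called), against 641 genes with an unadjusted p under 0.05 for Cnp loss and 574 for 5xFAD.

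The main endothelial transporters had 8116 (Slc2a1) and 1927 (Slc16a1) UMIs. Slc16a1 was 174 and 252 CPM in WT, 274 and 191 in Cnp-/-, 220 and 249 in 5xFAD, and 235 and 222 in Cnp-/- 5xFAD libraries, with overlap between all groups. Its log2 fold change was 0.06 (SE 0.157) with Cnp loss, in a comparison that called 0.0425% of genes. Slc2a1 was 891 and 1301 CPM in WT, 1084 and 989 in Cnp-/-, 909 and 807 in 5xFAD, and 860 and 855 in Cnp-/- 5xFAD libraries. With Cnp loss its log2 fold change was -0.03 (SE 0.124), and the interval reaches down to a fold of 0.806.

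With 5xFAD, endothelial Slc2a1 had a log2 fold change of -0.32 (SE 0.124, fold 0.80, 95% interval 0.659 to 0.971, unadjusted p = 0.0283, edgeR adjusted p = 0.908). The groups overlapped through the 891 CPM of WT replicate 1, and without that library the value was -0.46 with an edgeR adjusted p of 0.0373, in a fit that called 142 of 12349 genes where the fit with all libraries called 0 (5.22% of genes had an unadjusted p under 0.05, and DESeq2 called 2). The pericyte markers in the endothelial class summed to 3403 to 3698 CPM in the 4 libraries with 5xFAD and 3958 to 6002 in those without, and their part in the difference was not tested.

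Among the scarcer members of the endothelium, Slc2a3, Ldhb and Slc16a7 had lower mean levels with Cnp loss without passing the adjusted threshold. Slc2a3 was 11.8 and 10.9 CPM in WT, 29.2 and 21.2 in 5xFAD, 9.63 and 7.13 in Cnp-/-, and 2.16 and 6.93 in Cnp-/- 5xFAD libraries. The sides did not overlap (31 against 75 UMIs), as for 2.02% of endothelial genes in this direction. The log2 fold change was -1.40 (SE 0.400, unadjusted p = 0.00567, edgeR adjusted p = 0.343). The edgeR adjusted p was 0.0451 without the filter, in a fit that called many more endothelial genes than the main fit. Ldhb had a log2 fold change of -0.93 (SE 0.355, edgeR adjusted p = 0.526) and Slc16a7 of -0.64 (SE 0.323, edgeR adjusted p = 0.688). In neurons Slc2a3 and Slc16a7 were higher than in endothelial cells in all 8 libraries and Ldhb in 6 of 8. Neuron markers summed to 225 to 1070 CPM in the endothelial class, the highest outside neurons, and to 5167 to 6292 CPM in neurons. The part of RNA from other cells in these endothelial levels was not tested. The interaction for Slc2a3 was -1.90 (SE 0.799, unadjusted p = 0.0376, edgeR adjusted p = 0.831). Ldha, the endothelial subunit, had a log2 fold change of 0.14 with Cnp loss and -0.14 with 5xFAD.

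In neurons, the abundant members had narrow intervals. Slc2a3 had log2 fold changes of 0.01 with Cnp loss and 0.04 with 5xFAD (SE 0.0658), and Hk1 of -0.01 and 0.06 (SE 0.0825), and the sign of each of these 4 values changed among the alternatives. Slc16a7 had 0.19 with Cnp loss (SE 0.0639, fold 1.14, 95% interval 1.03 to 1.26, unadjusted p = 0.0219, edgeR adjusted p = 0.551), in a comparison that called 0.0185% of genes. In nuclei of Slc17a7 clusters only, a subset chosen after the data were seen, it was 0.05. Slc17a7 clusters held 57.9 ± 11.5% of neurons in libraries without Cnp and 49.7 ± 11.3% in those with it (SD, n = 4).

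Pdk4 in neurons had its lowest values with 5xFAD, at levels near 1 CPM or below: 0.865 and 1.05 CPM in WT, 0.493 and 0.545 in Cnp-/-, 0.333 and 0.410 in 5xFAD, and 0.360 and 0.335 in Cnp-/- 5xFAD libraries. The log2 fold change was -0.95 (SE 0.198, unadjusted p = 0.00188, edgeR adjusted p = 0.280) and lay between -1.01 and -0.89 in the alternatives. No gene was called by edgeR in this comparison (0%; 2542 genes had an unadjusted p under 0.05 and DESeq2 called 506, or 2.6%), and 2.47% of genes lay without overlap in this direction. The 4 clusters with 282 of the 309 UMIs made up 21.1 to 23.3% of neuronal nuclei in the libraries without 5xFAD and 21.4, 23.5, 22.6 and 16.9% in those with it, the lowest in Cnp-/- 5xFAD replicate 2. Neuronal CPM weighs clusters by their UMIs, and the UMI shares of these clusters are not given here. Within these clusters Pdk4 was 0.940 to 2.79 CPM without and 0.680 to 0.855 CPM with 5xFAD. These are nearly the same UMIs as in all neurons, and the part of cell makeup was not tested. In all neurons both WT libraries lay above every library of the other genotypes, Cnp-/- included. Over the alternatives the log2 fold change with Cnp loss was -0.49 to -0.35 and the interaction 0.68 to 0.93.

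Oligodendrocyte precursor cells had 5 members above the filter. Slc2a3 had a log2 fold change of -0.48 with Cnp loss (SE 0.206, unadjusted p = 0.0403, edgeR adjusted p = 1.00). Ldhb was 62.0 and 62.8 CPM in WT, 67.9 and 60.8 in Cnp-/-, 52.0 and 59.8 in 5xFAD, and 56.7 and 38.6 in Cnp-/- 5xFAD libraries. All 4 libraries with 5xFAD lay below the other 4, as for 1.26% of genes, with a log2 fold change of -0.31 (SE 0.178, edgeR adjusted p = 0.993). No gene was called in this class for either effect (0% by edgeR).

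Microglia held the largest 5xFAD difference among the members tested, in Ldha. It was 8.14 and 17.5 CPM in WT, 6.91 and 6.24 in Cnp-/-, 26.0 and 23.4 in 5xFAD, and 41.8 and 48.8 in Cnp-/- 5xFAD libraries, from 12 UMIs without and 109 with 5xFAD. The sides did not overlap, as for 3.81% of microglial genes in this direction. The log2 fold change was 1.88 (SE 0.468, fold 3.68, 95% interval 1.78 to 7.60), with an unadjusted p of 0.00200 and an edgeR adjusted p of 0.180, in a comparison that called 0.229% of genes. Across alternatives it lay between 1.62 and 2.14, with adjusted p between 0.0652 and 0.507. Slc16a3, the exporter of glycolytic cells, was 8.14 and 11.6 CPM in WT, 8.64 and 3.12 in Cnp-/-, 21.0 and 13.4 in 5xFAD, and 18.1 and 18.3 in Cnp-/- 5xFAD libraries. It too did not overlap (log2 fold change 1.15, SE 0.635, edgeR adjusted p = 0.629). Slc2a1 had 0.93 (SE 0.545, edgeR adjusted p = 0.652) with overlapping groups, and ran from 0.56 to 1.68 among the alternatives. With Cnp loss, the 6 microglial members had log2 fold changes of -0.22 to 0.31 and edgeR adjusted p-values of at least 0.624, in a comparison that called 0.904% of genes.

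Slc16a3 was too sparse to test outside microglia and neurons, and its UMIs are given as counts. In mature oligodendrocytes it was 0 and 2.11 CPM in WT, 0 and 0 in Cnp-/-, 2.22 and 8.96 in 5xFAD, and 5.79 and 4.1 in Cnp-/- 5xFAD libraries, from 2 UMIs without and 23 with 5xFAD. Endothelial cells had 0 UMIs in the 4 libraries without 5xFAD and 14 in those with it, 3 or 4 per library. Of the genes that passed the filter, 1.24% in mature oligodendrocytes and 1.79% in endothelial cells lay without overlap in this direction. No such share is given for genes below the filter, such as Slc16a3 here, so these counts carry no claim of change. The other classes held few: 1 without and 4 with 5xFAD in astrocytes (all 4 from 1 library), 1 and 3 in newly formed oligodendrocytes, 0 and 2 in pericytes, and 2 and 0 in precursors, where both were in WT. Neurons, at 1.11 to 1.61 CPM, gave a log2 fold change of 0.13.

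The authors' subpopulations of microglia and macrophages place part of these counts. Their table leaves out 181 of the 2472 microglia, which stayed in the tests above. Most of the Ldha UMIs of libraries without 5xFAD lay in these nuclei and are not placed. Those placed were in macrophages (2 in WT replicate 2 and 1 in Cnp-/- replicate 2) and in myelin transcript enriched microglia. The latter held 1 in Cnp-/- replicate 1 and 1 in Cnp-/- replicate 2. Amyloid-DAM, the disease-associated microglia named for plaques, were 29.7 to 37.4% of this table in libraries with 5xFAD and 0 to 5.15% in the others. Within the 4 libraries with 5xFAD, pooled Ldha was 62.7 CPM in amyloid-DAM (95% Poisson interval 47.0 to 82.0, counting error only) and 34.9 in homeostatic microglia (22.8 to 51.2), and higher in amyloid-DAM in 4 of 4 libraries. Slc16a3 was 40.2 (27.9 to 56.2) and 10.8 (4.64 to 21.2) CPM, higher in amyloid-DAM in 3 of 4 libraries, and Slc2a1 55.6 (40.9 to 73.9) and 33.6 (21.7 to 49.6), also in 3 of 4. Only for Slc16a3 did the intervals not overlap, and these are descriptions of clusters made from the same counts. Over all 8 libraries, macrophages held 519 CPM of Slc16a7 (451 to 593) against 231 in homeostatic microglia.

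Within homeostatic microglia alone, Ldha had 0 UMIs of 489418 in the 4 libraries without 5xFAD and 26 of 743929 in the 4 with it (8, 2, 8 and 8 per library). That is 34.9 CPM (95% Poisson interval 22.8 to 51.2) with 5xFAD, and without it a count of 0 allows up to 6.13 CPM (3 counts over the group), both covering counting error only. For Slc2a1 the counts were 2 and 25 UMIs (4.09 and 33.6 CPM), but those with 5xFAD were 16, 6, 3 and 0 per library, the last 2 from Cnp-/- 5xFAD, and without 5xFAD replicate 1 the level was 18.1 CPM. For Slc16a3 they were 7 and 8 UMIs (14.3 and 10.8 CPM). No replicate test was made of these sparse counts. They are part of the counts of all microglia given above and are not further evidence. The share of all genes that split the libraries this way in homeostatic nuclei is not given, and the part of cell makeup was not tested.

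**Figure D5:**
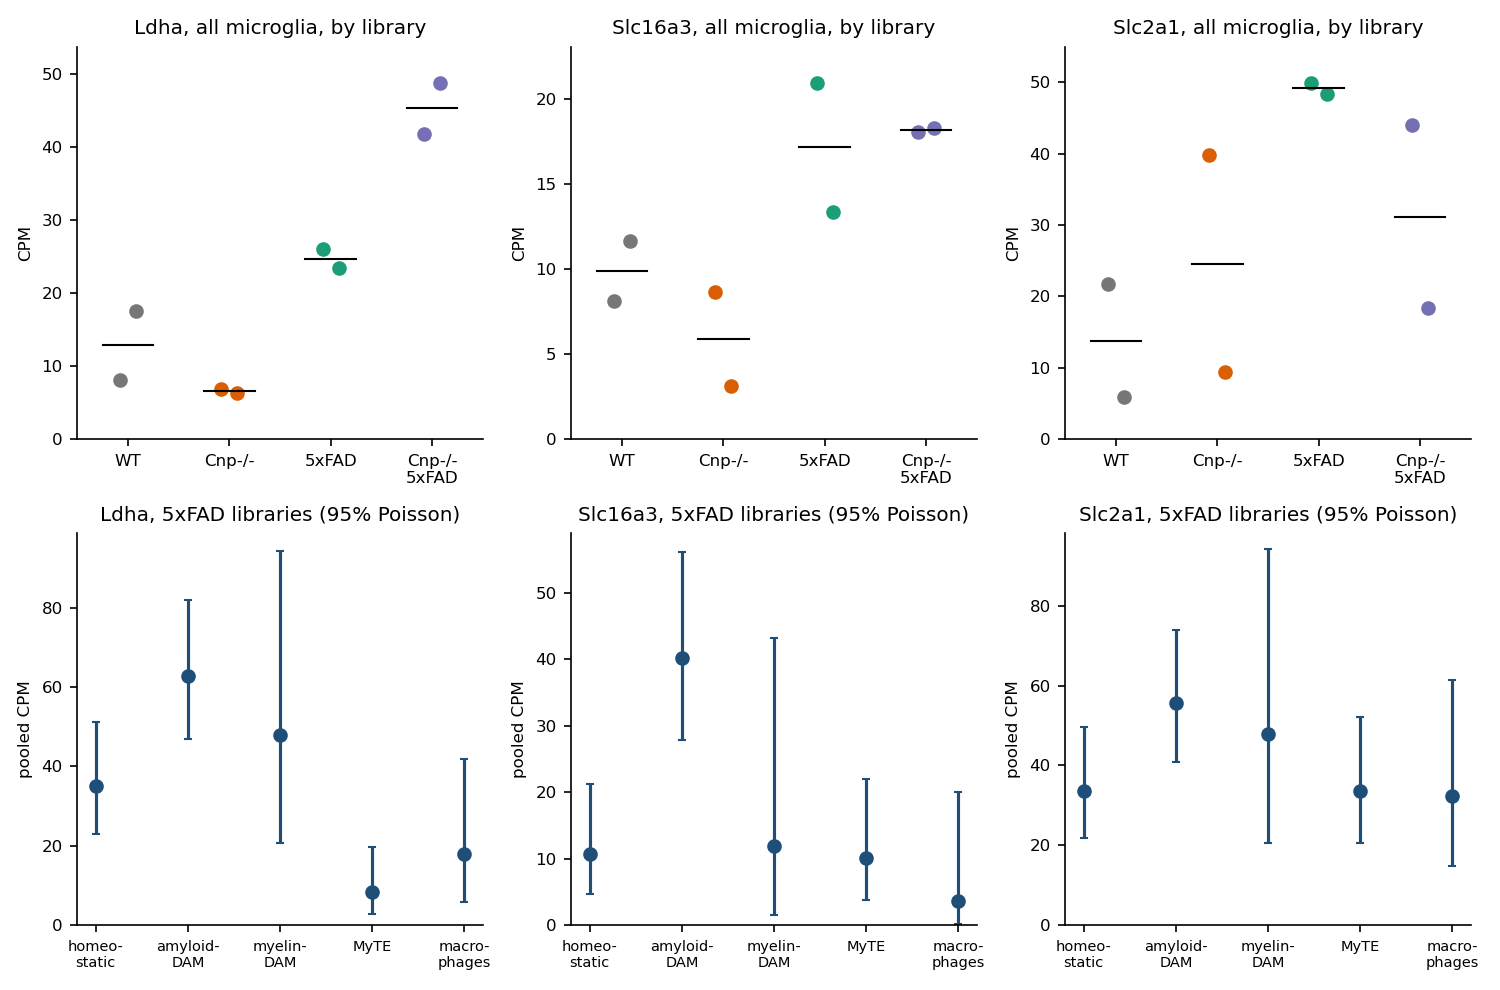
Ldha, Slc16a3 and Slc2a1 in microglia. Upper row, CPM by library and genotype with the mean of 2 as a bar; lower row, CPM pooled over the 4 libraries with 5xFAD in 5 subpopulations with 95% Poisson intervals, all axes linear from 0. Ldha spans 23.4 to 48.8 CPM in the 4 libraries with 5xFAD and 6.24 to 17.5 in the other 4, and in the lower row the intervals of amyloid-DAM and homeostatic microglia are apart only for Slc16a3 (40.2 and 10.8 CPM).

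The wider pathway was read through 8 lists with 107 genes in all, in the same 18 comparisons (6 classes and 3 contrasts). edgeR called no list gene in either direction. At an unadjusted p under 0.05 there were 12 of 117 tests for other lactate and monocarboxylate transport, 4 of 96 for other glucose transport, 23 of 252 for glycolysis, 13 of 225 for pyruvate entry, 9 of 165 for glycogen, 9 of 204 for fatty acid and ketone use, 22 of 174 for the glucocorticoid response and 8 of 87 for the hypoxia response, where 6.82% of all tests lay under it. DESeq2 called 7 of these tests: Gapdh with Cnp loss (6.02% of genes called) and P4ha1 with 5xFAD (0.266%) in mature oligodendrocytes, and Hkdc1, Aldoc, Cpt1a, Mt1 and Tsc22d3 with 5xFAD in neurons (2.6%). Signs are given for glycolysis and the glucocorticoid response, picked after their values were seen, in mature oligodendrocytes, astrocytes, endothelial cells, neurons, precursors and microglia in that order. Over all genes the median log2 fold change lay between -0.03 and 0.01 for Cnp loss and between -0.01 and 0.02 for 5xFAD in these classes. Glycolysis genes lay below 0 with 5xFAD in 3 of 7, 15 of 17, 10 of 16, 7 of 22, 7 of 11 and 3 of 11 tested (medians 0.16, -0.19, -0.02, 0.05, -0.12 and 0.24). With Cnp loss they did so in 3 of 7, 4 of 17, 14 of 16, 15 of 22, 8 of 11 and 4 of 11 (medians 0.78, 0.06, -0.15, -0.04, -0.25 and 0.07). Glucocorticoid response genes lay below 0 with 5xFAD in 9 of 10, 9 of 10, 11 of 11, 8 of 11, 6 of 7 and 7 of 9 (medians -0.51, -0.36, -0.31, -0.18, -0.20 and -0.53), and with Cnp loss in 6 of 10, 5 of 10, 6 of 11, 7 of 11, 5 of 7 and 2 of 9 (medians -0.35, 0.00, -0.12, -0.12, -0.13 and 0.23). In mature oligodendrocytes, a class also named after its values were seen, 5 of the 10 had an unadjusted p under 0.05 with 5xFAD by edgeR. Of all genes there 3.72% did. The genes of a list share the same libraries and the list was picked, so this is no test of it. The classes come from the same libraries, so their signs are not independent of each other.

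Genes with the pattern most like each member were found by Pearson correlation of log2(CPM + 1) over 64 profiles (8 classes in 8 libraries, which share libraries and depth), among 12052 genes. Slc2a3 had the closest neighbour, Ptprn (r = 0.95), followed by Slc16a7 with Spock1 and Slc8a1 (both 0.91). Ldhb was closest to Ssbp2 (0.89) and Rasa2 (0.88), and Hk1 to Ptpn12 and Hivep2 (both 0.89). The endothelial members were closest to Actb and Igf1r (Slc2a1, both 0.85), Gimap8 and Slc30a1 (Slc16a1, both 0.79), and Zbtb46 (0.80) and Luzp1 (0.79) for Ldha. Pdk4 was closest to Paqr6 (0.83) and Itih3 (0.80), and Slc16a3, with the fewest counts, to Slc17a9 and Ms4a6c (both 0.71).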

How the data were processed

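The authors sequenced nuclei on the 10x Chromium 3′ platform, aligned reads with Cell Ranger 6.1.2 to mm10, removed ambient RNA with CellBender, filtered nuclei on genes and UMIs and clustered them with Seurat. Whether intronic reads were counted, how doublets were treated and how reads of overlapping genes were assigned are not given in the sources used here. Slc16a1, Slc2a1 and Slc2a3 overlap other annotated genes on the same strand. The deposited values are raw UMI counts per gene and nucleus (at least 301 genes and 501 UMIs in every nucleus), with the authors' class and subpopulation for each nucleus as deposited labels. Their cells' totals matched the deposited numbers. Libraries held 6801 to 8824 nuclei and 68905044 to 82399061 UMIs. Of the 2472 microglia, 181 were not in the microglia table.

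UMI counts were summed per library and class with pandas 2.3.3. Each class tested had at least 20 nuclei in every library, and pericytes, with 19 in 1 library, were described only. Newly formed oligodendrocytes, with 22 to 104 nuclei per library, met this bound but were also described only. Genes were filtered by filterByExpr (lowest count 10), scaled by TMM, and tested two-sided in edgeR 4.0.16 with 1 mean per genotype and Benjamini-Hochberg adjustment over all genes of a class. Library and pooled animals, not nuclei, are the replicates, and p-values measure the spread between 2 libraries a genotype. Levels between classes were not tested. On simulated counts with known changes for Cnp loss, the model recovered 9.38% (mature oligodendrocytes) to 37.9% (neurons) of 1.5-fold changes over the 6 classes. Of 2-fold changes it recovered 23.8% in mature oligodendrocytes, 31.25% in microglia and 43.75% in astrocytes. The lack of a call in any class thus does not show the lack of a change.

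The alternatives were DESeq2's size factors, DESeq2 1.42.0 itself, fits to genes of any count, a block for the replicate number, nuclei with at least 1000 UMIs, means over nuclei scaled to 10000 UMIs for levels, each library left out, and, added after seeing the data, neurons of Slc17a7 clusters only. Members and lists were chosen with earlier results of these data known. The named genes are the 9 members in every class, list genes past the threshold (at most 5 per comparison, none of which arose), the 2 genes most like each member (1 of which is not reported here) and Cnp; DESeq2's list calls were named after their values were seen. Positions are of GENCODE for GRCm38.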

Additional observations from a re-analysis of the deposited data

Results flagged for a closer look

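Of 71 groups of 8 libraries (a member in a class, pericytes included), 10 had 1 library whose gap to the nearest other exceeded Dixon's 95% critical value for 8 values. For normally distributed values chance flags about 1 in 20 groups. That rate does not hold for sparse counts, where the only library with a UMI is always flagged. The genotypes are pooled in these groups, and most flags rest on few UMIs. WT replicate 2 was the highest library for Slc16a1 in oligodendrocyte precursor cells (28.5 CPM from 10 UMIs, next 2.10), for Hk1 in mature oligodendrocytes (22.2 CPM from 21 UMIs, next 8.96), for Pdk4 in mature oligodendrocytes (34.9 CPM from 33 UMIs, next 12.8) and for Slc2a3 in astrocytes (3.32 CPM from 5 UMIs, next 1.12). 5xFAD replicate 1 was the highest for Slc2a3 in microglia (36.9 CPM from 37 UMIs, next 11.6), for Hk1 in neurons (102 CPM from 6758 UMIs, next 89.5) and for Pdk4 in pericytes (9.63 CPM from 1 UMI, next 0). WT replicate 1 was the highest for Slc2a3 in mature oligodendrocytes (1.73 CPM from 2 UMIs) and in pericytes (22.9 CPM from 1 UMI), with 0 in the other libraries. Cnp-/- 5xFAD replicate 1 was the highest for Slc16a3 in astrocytes (2.44 CPM from 4 UMIs, next 0.664).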

How the results depend on the processing

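Of 287 alternative values for 22 member effects (an unadjusted p under 0.1, a call in an alternative, or Slc16a1 and Slc2a1 in endothelial cells), 273 kept their direction and side of the threshold, 7 crossed to an adjusted p under 0.05 and 7 changed sign. The crossing not described above was the Ldha interaction in astrocytes without the filter on low counts (log2 fold change 1.95, edgeR adjusted p = 0.0216). Of all 111 member effects, 61 had the other sign in an alternative, 0 of them with an unadjusted p under 0.1. Among the 22, the sign changes were of endothelial values near 0. Slc16a1 with Cnp loss became -0.0778 without WT replicate 1 and -0.0808 without Cnp-/- replicate 1 (range -0.0808 to 0.21 with each library left out), and Slc16a1 with 5xFAD -0.0829 without WT replicate 1 and -0.0664 without Cnp-/- replicate 2 (range -0.0829 to 0.20). Slc2a1 with Cnp loss became 0.13 without WT replicate 2, 0.0031 without Cnp-/- replicate 2 and 0.0091 without 5xFAD replicate 1 (range -0.16 to 0.13). All 9 members kept their highest class under both alternatives for levels.

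Outside neurons, counts of called genes over all genes were higher without the filter on low counts, while in neurons they were 4, 0 and 0 for Cnp loss, 5xFAD and the interaction. The cause was not tested. For Cnp loss, no filter gave 544 genes in mature oligodendrocytes (main 67), 358 in astrocytes (0), 458 in endothelial cells (5), 127 in precursors (0) and 423 in microglia (87). For 5xFAD it gave 37, 352, 135, 110 and 300 in these classes (main 0, 0, 0, 0 and 22), and for the interaction 44, 389, 297, 73 and 165 (main 0 in each). DESeq2 gave 517, 7, 42, 1 and 172 for Cnp loss, 12, 2, 2, 3 and 54 for 5xFAD, and in neurons 181 for Cnp loss (main 4), 506 for 5xFAD (0) and 58 for the interaction (0). For the interaction it gave 11 in mature oligodendrocytes, 9 in astrocytes, 34 in endothelial cells and 20 in microglia. Nuclei with at least 1000 UMIs gave 103 for Cnp loss in mature oligodendrocytes.

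With each library left out, Cnp loss gave 2 to 262 genes in mature oligodendrocytes, 0 to 97 in endothelial cells, 2 to 5 in neurons, 0 to 3 in precursors and 0 to 154 in microglia. 5xFAD gave 0 to 142 in endothelial cells, 0 to 4 in neurons and 8 to 75 in microglia, and the interaction 0 to 112, 0 to 1 and 0 to 7 in those classes and 0 to 2 in precursors. Without WT replicate 1 the endothelial 5xFAD and interaction counts reached 142 and 112.

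The replicate numbers do not pair the libraries: at most 1 of 6 same-numbered pairs per class correlated over 0.1 (range -0.203 to 0.190). As a block they gave 23 genes for Cnp loss in mature oligodendrocytes, 29 in microglia, 11 for 5xFAD in microglia and 1 for the endothelial interaction, and no member was called.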
